A study of Mus musculus with 16 samples.

Results

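The NFAT factors and calcineurin were followed through RAW264.7 cells given RANKL, cancer cell vesicles or both. The 8 genes, taken by name from the 20490 of the deposited expression table, are Nfatc1, Nfatc2, Nfatc3 and Nfat5, which encode transcription factors, Ppp3ca, Ppp3cb and Ppp3r1, which encode calcineurin subunits, and Rcan1, which encodes a regulator of calcineurin. RAW264.7 is a mouse macrophage line, named an osteoclast precursor by the labels, that is used to study how osteoclasts, the cells that resorb bone, arise under the cytokine RANKL. The cells of all groups attached to culture dishes in serum-containing medium before treatment. They then received 30 µg/mL extracellular vesicles of PC3M, a metastatic human prostate cancer line, together with 10 ng/mL recombinant mouse GST-RANKL (EV+RANKL), RANKL alone, vesicles alone (EV), or phosphate-buffered saline (PBS). RNA was taken at 72 h or 48 h, so that there are 8 groups with 2 libraries each, 16 altogether. Nothing in the labels ties the 2 libraries of a group to separate cultures, and the p-values therefore reflect the spread between samples alone, part or all of which may be technical. In 1 EV+RANKL library of 48 h, called replicate 2 here, the column name lacks the letter for RANKL. A plus sign, found only in names of this group, placed it there, and values without it stand beside the main results of the comparisons that hold it. All cells are 1 line, and RNA of a whole dish was measured, so that fewer cells of a type and less RNA per cell cannot be told apart.

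Calcineurin is a phosphatase that calcium and calmodulin switch on. It joins a catalytic chain, such as those of Ppp3ca and Ppp3cb, to a calcium-binding regulatory chain, that of Ppp3r1. It removes phosphate from the NFATc factors in the cytoplasm, which lets them enter the nucleus. In osteoclast precursors RANKL induces Nfatc1, whose protein also acts on its own gene and drives genes of resorption and cell fusion. NFAT5 carries the same kind of DNA-binding domain but not the calcineurin-binding region, and is best known for the response to high salt. RCAN1 binds calcineurin and restrains it, and its short form is made from an internal promoter that NFAT binds.

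The promoter windows of Rcan1, Nfat5 and Ppp3cb are printed because Rcan1 and Nfat5 changed with RANKL, while Ppp3cb is a calcineurin gene that did not pass the test. The windows run from 250 bases before to 50 after a transcript start and come from RefSeq on GRCm38.p6. Windows of 1 chromosome were left out before any counting, and in the rest 6 of the 8 genes have 9 windows. Nfatc1 and Ppp3ca have no window among these, and whether RefSeq holds one for either gene was not checked. Capitals mark GGAAA or its reverse complement TTTCC, the core that NFAT factors recognise, and TGANTCA, the site of AP-1, the dimer that binds beside NFAT. Both strands were searched, and overlapping matches were counted. GGAAA was present in 61.3% of 32851 windows of this length and TGANTCA in 7.81%, while 2.65% held at least 4 matches to GGAAA. The starts of the Rcan1 windows lie 66091 bases apart on the minus strand of chromosome 16, at chr16:92466120-92466419 and chr16:92400029-92400328. In the GENCODE M21 annotation of GRCm38, both lie mainly in an intron of longer Rcan1 transcripts, with 273 and 251 intronic bases, and 2 and 1 of the 7 Rcan1 transcripts start in them. The Nfat5 window, chr8:107293220-107293519 on the plus strand, and the Ppp3cb window, chr14:20546524-20546823 on the minus strand, each hold 250 bases outside their gene and 50 exonic bases.
Rcan1, upstream start: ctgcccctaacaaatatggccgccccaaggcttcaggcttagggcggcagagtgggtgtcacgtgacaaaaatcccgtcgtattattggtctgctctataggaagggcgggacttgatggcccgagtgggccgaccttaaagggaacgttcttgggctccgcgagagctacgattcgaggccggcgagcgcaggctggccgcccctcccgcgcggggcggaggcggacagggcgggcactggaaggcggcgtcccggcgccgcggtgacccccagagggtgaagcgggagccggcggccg
Rcan1, downstream start: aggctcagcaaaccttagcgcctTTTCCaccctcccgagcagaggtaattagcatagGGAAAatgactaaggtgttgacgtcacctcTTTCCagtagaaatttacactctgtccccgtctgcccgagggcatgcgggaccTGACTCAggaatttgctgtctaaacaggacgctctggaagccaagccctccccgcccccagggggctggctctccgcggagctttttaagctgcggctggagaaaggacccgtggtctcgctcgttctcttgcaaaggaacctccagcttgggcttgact
Nfat5: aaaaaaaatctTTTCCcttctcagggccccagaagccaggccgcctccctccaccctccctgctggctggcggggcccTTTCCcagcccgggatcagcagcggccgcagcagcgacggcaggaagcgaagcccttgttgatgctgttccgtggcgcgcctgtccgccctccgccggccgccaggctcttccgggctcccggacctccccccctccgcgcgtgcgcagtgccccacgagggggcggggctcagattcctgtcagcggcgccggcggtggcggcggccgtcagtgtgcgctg
Ppp3cb: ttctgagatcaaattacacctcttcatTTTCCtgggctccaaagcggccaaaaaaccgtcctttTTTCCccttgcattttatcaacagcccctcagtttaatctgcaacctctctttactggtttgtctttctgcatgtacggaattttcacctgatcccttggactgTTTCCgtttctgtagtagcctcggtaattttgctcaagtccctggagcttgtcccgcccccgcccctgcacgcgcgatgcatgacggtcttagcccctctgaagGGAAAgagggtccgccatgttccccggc
The upstream Rcan1 window has 0 matches to either motif, whereas the downstream one has 3 matches to GGAAA and 1 to TGANTCA. The Nfat5 window has 2 matches to GGAAA and the Ppp3cb window has 4, both with 0 to TGANTCA. The expression table has 1 value per gene and library, so the transcripts of the Rcan1 starts were not measured apart.

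Values are given as RPKM, read counts scaled to gene length and library size, and tests were run on log2(RPKM + 1), the scale of the deposited values, with limma over 10365 genes, Benjamini-Hochberg adjustment and a threshold of 0.05. The estimated depth was 18260000 to 20020000 reads per library, at which 3 reads in a transcript of 1 kb are worth 0.150 to 0.164 RPKM. All 10 macrophage markers checked were present, among them Cd68 at 782 to 1318 RPKM and Tnfrsf11a, the receptor of RANKL, at 12.8 to 38.3 RPKM. Against PBS, 2 of these 10 rose and 3 fell with EV+RANKL, 1 rose and 3 fell with RANKL, and 2 rose with EV at 72 h (0 without EV_72h replicate 1 or PBS_72h replicate 2). At 48 h 1 rose and 7 fell with EV+RANKL, and 1 rose and 6 fell with RANKL (4 calls without RANKL_48h replicate 2 or PBS_48h replicate 2). With EV at 48 h 1 fell (0 without EV_48h replicate 1 or either PBS_48h library). Among all tested genes, 41.9% passed against PBS with EV+RANKL, 18.9% with RANKL and 18.3% with EV at 72 h. At 48 h these shares were 22.1%, 14.8% and 1.29%. The marker counts were near these shares with EV+RANKL and EV at 72 h. They were above them with RANKL at both times and with EV+RANKL at 48 h. Of 16 markers of epithelial, stromal, bone-forming and other blood cells, the table lists 11, of which S100a8 and Itgax alone passed the filter of 1 RPKM in 2 libraries, and Epcam, Krt8 and Col1a1 stayed at or below 0.0499 RPKM. The sum of these markers was 2.96 to 4.64 RPKM in EV+RANKL, 1.90 to 2.49 in RANKL, 2.11 to 2.74 in EV and 1.64 to 1.99 in PBS libraries at 72 h, and 1.40 to 3.03 over all libraries at 48 h. Their part in the results was not tested. Of the 72 h libraries 5 stood apart from the other 11, namely both of EV+RANKL, RANKL replicate 2 and both of EV, with ribosomal protein genes at 10.593% to 10.996% of summed RPKM, against 7.85% to 9.41% elsewhere. All 72 h comparisons that involve vesicles rest on these libraries, those at 48 h hold none of them, and RANKL at 72 h is also given without its replicate 2.

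Nfatc1, Rcan1 and Nfat5 changed with treatment, while the group means of Nfatc2, Nfatc3, Ppp3ca, Ppp3cb and Ppp3r1 spanned narrower ranges. The highest group mean was 12.8 times the lowest for Nfatc1 and 5.74 times for Rcan1. It was 1.77 times for Nfat5, 1.45 for Ppp3r1, 1.43 for Nfatc2, 1.25 for both Nfatc3 and Ppp3ca, and 1.18 for Ppp3cb. All 8 genes were at 4.66 RPKM or more in all 16 libraries, and all 8 passed the filter on low values. In EV+RANKL against PBS, 3 of 8 passed the test at 72 h, a share no higher than that of all tested genes, 41.9% of which passed, and 3 passed at 48 h, where 22.1% of genes did. In RANKL against PBS, 3 passed at 72 h and 3 at 48 h, against 18.9% and 14.8% of genes. In EV against PBS, 2 passed at 72 h and 2 at 48 h, against 18.3% and 1.29% of genes. The median log2 change over the 8 genes was 0.07, 0.06 and -0.01 for EV+RANKL, RANKL and EV against PBS at 72 h, and 0.19, 0.20 and 0.00 at 48 h, beside medians over all tested genes of -0.02, 0.00 and 0.03 at 72 h, and 0.07, 0.06 and 0.03 at 48 h.

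**Figure D1:**
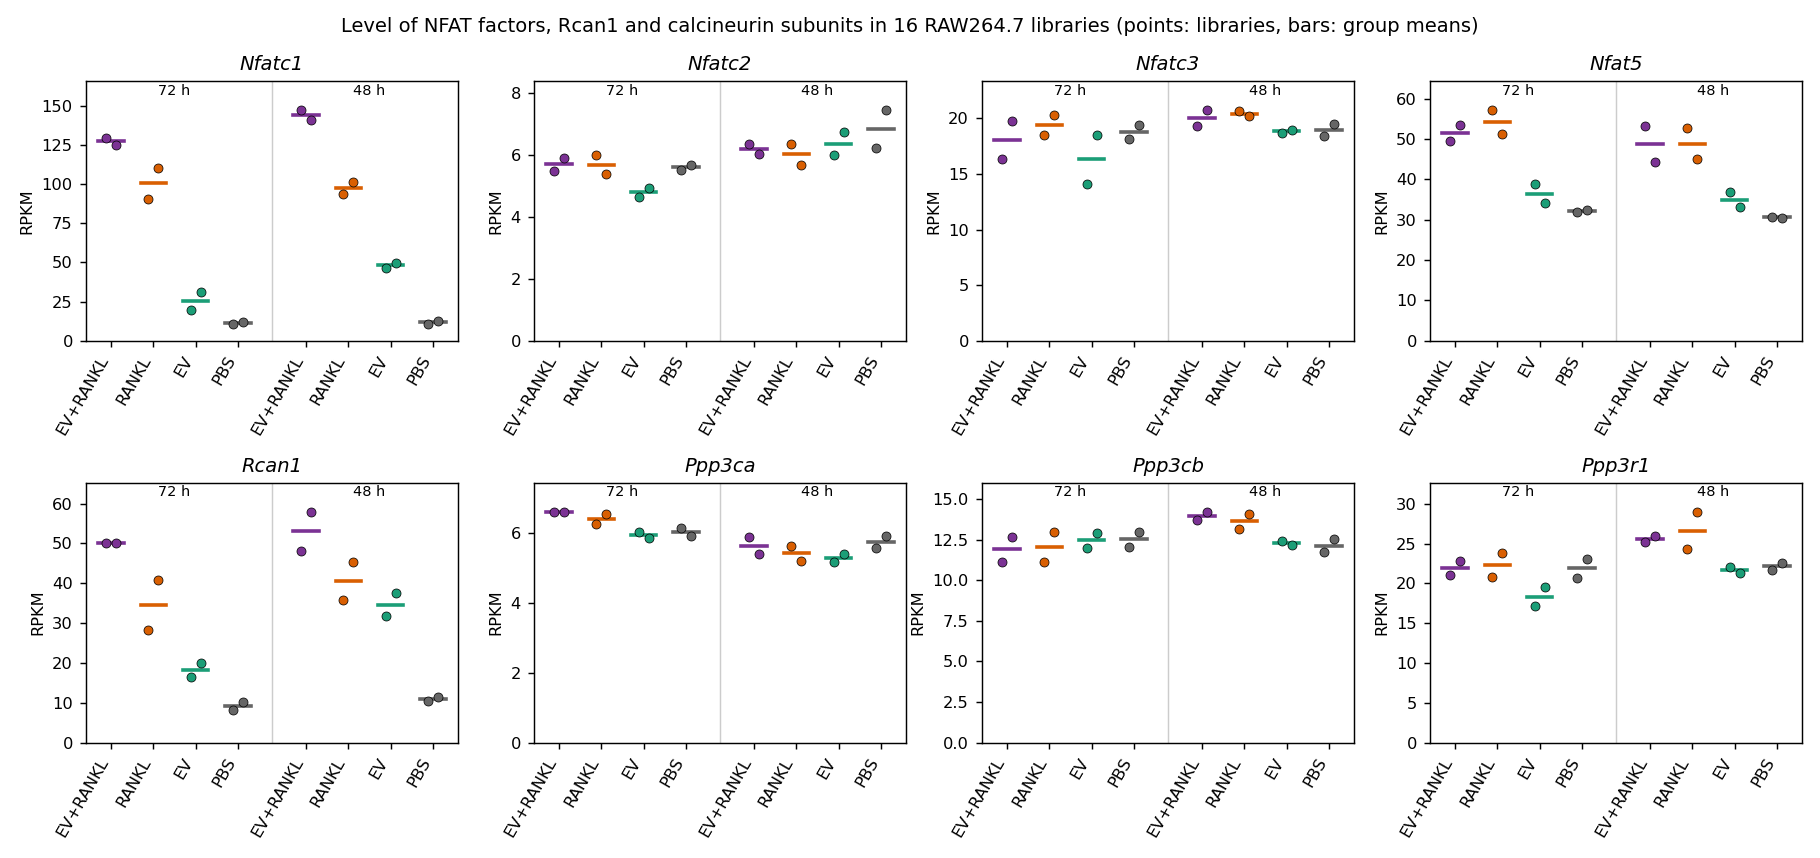
RPKM (linear axis from 0) of each of the 8 genes in EV+RANKL, RANKL, EV and PBS cells at 72 h (left of the line) and 48 h (right), with 1 point per library and a bar at the mean of the 2 libraries. Nfatc1 spans 10.8 to 147 RPKM and Rcan1 8.26 to 58.0 RPKM, while Ppp3ca stays between 5.19 and 6.62 RPKM.

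Nfatc1, the NFAT factor that osteoclast formation requires, was high wherever RANKL was present and intermediate with vesicles alone. At 72 h it had 129 and 125 RPKM in EV+RANKL cells, 90.7 and 110.4 in RANKL cells, 19.7 and 31.1 in EV cells, and 10.8 and 11.7 in PBS cells. At 48 h it had 147 and 140.5 RPKM in EV+RANKL cells, 93.9 and 101 in RANKL cells, 46.7 and 49.7 in EV cells, and 11.002 and 12.95 in PBS cells. At both times the 4 treatments were ordered in this way without overlap between libraries. Over all groups, libraries overlapped only between neighbours of the same treatment, RANKL at 72 h with RANKL at 48 h, and PBS at 48 h with PBS at 72 h.

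The rise of Nfatc1 over PBS was larger than the spread between replicates in all 3 treatments at both times. EV+RANKL raised it 11.3-fold in group means at 72 h (log2 change 3.39 ± 0.17, SE; limma adjusted p = 7.0e-08) and 12.0-fold at 48 h (3.48 ± 0.17, adjusted p = 9.2e-08). RANKL alone raised it 8.92-fold at 72 h (3.04 ± 0.17, adjusted p = 4.5e-07) and 8.15-fold at 48 h (2.93 ± 0.17, adjusted p = 7.2e-07). Without RANKL_72h replicate 2, the RANKL change at 72 h was 2.90 on the log2 scale, and without EV+RANKL_48h replicate 2 the EV+RANKL change at 48 h was 3.52. Vesicles alone gave 25.4 ± 8.04 RPKM against 11.3 ± 0.618 in PBS at 72 h (SD, n = 2 each; log2 change 1.07 ± 0.17, adjusted p = 0.00536), and 48.2 ± 2.18 RPKM against 12.0 ± 1.38 in PBS at 48 h (1.93 ± 0.17, adjusted p = 9.6e-05). The 72 h call was lost without PBS_72h replicate 2 (1.12, adjusted p = 0.0528) and when 72 h libraries alone were fitted (1.07, adjusted p = 0.0654), whereas the 48 h call held without any 1 of its 4 libraries.

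Nfatc2 and Nfatc3 encode NFAT factors that calcineurin also activates, and neither passed against PBS. Nfatc2 had 5.49 and 5.91 RPKM in EV+RANKL, 5.99 and 5.39 in RANKL, 4.66 and 4.94 in EV, and 5.53 and 5.67 in PBS cells at 72 h. At 48 h its libraries ran from 5.67 to 7.46 RPKM, and the groups overlapped. The log2 changes of Nfatc2 against PBS were between -0.19 and 0.02, with 95% intervals that together reached from -0.40 to 0.23. Nfatc3 had 16.3 and 19.7 RPKM in EV+RANKL, 18.5 and 20.3 in RANKL, 14.1 and 18.5 in EV, and 18.1 and 19.4 in PBS cells at 72 h, and 18.4 to 20.7 RPKM at 48 h. Its lowest library was EV_72h replicate 1, and without replicate 2 of that group, which leaves this library alone, Nfatc3 passed as lower in EV than in PBS (log2 change -0.39, adjusted p = 0.0274). With both libraries its change was -0.20, with an interval from -0.46 to 0.06. For the other 5 comparisons against PBS, the intervals of Nfatc3 lay between -0.32 and 0.36.

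Because these values are per length, the 3 calcineurin-controlled factors could be set beside each other within a library. In PBS cells Nfatc3 was the most abundant of them, and with RANKL, vesicles or both Nfatc1 was. Nfatc1 made up 84.3% ± 1.86 (SD, n = 2 per group) of the summed RPKM of the 3 genes in EV+RANKL, 79.9% ± 1.70 in RANKL, 54.1% ± 4.07 in EV and 31.6% ± 0.292 in PBS cells at 72 h. At 48 h its share was 84.6% ± 0.816 in EV+RANKL, 78.7% ± 1.46 in RANKL, 65.7% ± 0.391 in EV and 31.7% ± 1.14 in PBS cells, and EV+RANKL_48h replicate 1 by itself had 85.1%. The sum itself was 151 ± 0.537 RPKM in EV+RANKL, 126 ± 14.7 in RANKL, 46.5 ± 11.4 in EV and 35.6 ± 1.62 in PBS cells at 72 h. With 2 libraries against 2, an exact two-sided permutation test of such a share cannot give a p below 0.333, so the shares are descriptions.

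**Figure D2:**
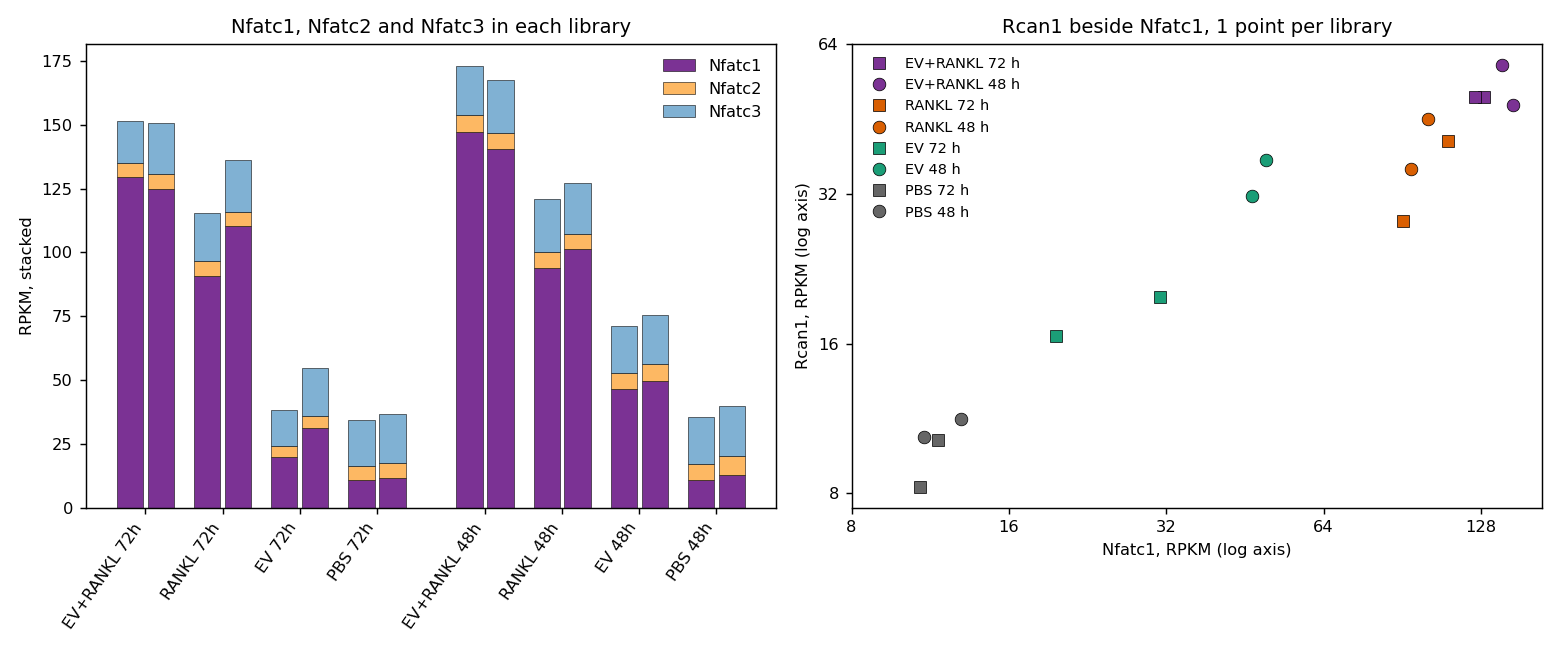
Left, RPKM of Nfatc1, Nfatc2 and Nfatc3 stacked for each of the 16 libraries (2 bars per group); right, RPKM of Rcan1 against Nfatc1 on log axes, with 1 point per library (squares 72 h, circles 48 h). The Nfatc1 part of the bars makes up 31.6% at PBS 72 h and 84.3% at EV+RANKL 72 h, and in the right panel the EV libraries lie between the PBS and the RANKL libraries on the Nfatc1 axis.

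Nfat5, which calcineurin does not control, rose modestly with RANKL. It had 49.5 and 53.6 RPKM in EV+RANKL, 57.2 and 51.4 in RANKL, 38.8 and 34.1 in EV, and 31.8 and 32.4 in PBS cells at 72 h. At 48 h it had 53.3 and 44.3 RPKM in EV+RANKL, 52.8 and 45.0 in RANKL, 36.8 and 33.1 in EV, and 30.7 and 30.5 in PBS cells. All 8 libraries with RANKL lay above all 8 without it, and the RANKL and EV+RANKL libraries overlapped. EV+RANKL raised it 1.60-fold at 72 h (log2 change 0.66 ± 0.12, limma adjusted p = 7.2e-04) and 1.59-fold at 48 h (0.65 ± 0.12, adjusted p = 0.00133; 0.78 without EV+RANKL_48h replicate 2). RANKL alone raised it 1.69-fold at 72 h (0.74 ± 0.12, adjusted p = 0.00117), or by 0.81 on the log2 scale without RANKL_72h replicate 2, and 1.60-fold at 48 h (0.65 ± 0.12, adjusted p = 0.00212). With vesicles alone the change did not pass at 72 h (0.17, interval -0.08 to 0.42) or at 48 h (0.18, interval -0.07 to 0.43), although the EV libraries lay above the PBS libraries at both times.

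Ppp3ca, Ppp3cb and Ppp3r1 did not pass in any of the 6 comparisons against PBS, whereas Ppp3cc, a paralog that also encodes a catalytic chain, fell at 72 h with EV+RANKL (-0.59) and with RANKL (-0.53, lost without RANKL_72h replicate 2 or PBS_72h replicate 1), as described with the paralogs. Ppp3ca, a catalytic chain, had 6.61 and 6.62 RPKM in EV+RANKL, 6.28 and 6.55 in RANKL, 6.04 and 5.86 in EV, and 6.15 and 5.94 in PBS cells at 72 h, and 5.19 to 5.94 RPKM at 48 h. Its log2 changes against PBS lay between -0.10 and 0.11, with intervals that together reached from -0.26 to 0.28. Ppp3cb, another catalytic chain, had 11.2 and 12.7 RPKM in EV+RANKL, 11.1 and 12.98 in RANKL, 12.0 and 12.952 in EV, and 12.1 and 12.987 in PBS cells at 72 h. At 48 h it had 13.8 and 14.2 RPKM in EV+RANKL, 13.2 and 14.1 in RANKL, 12.5 and 12.2 in EV, and 11.7 and 12.6 in PBS cells, where both RANKL groups lay above PBS without overlap and did not pass. The 48 h change of Ppp3cb was 0.19 with EV+RANKL (interval -0.01 to 0.39), and it passed when 48 h libraries alone were fitted (adjusted p = 0.0448). Ppp3ca and Ppp3cb summed to 18.5 ± 1.08 RPKM in EV+RANKL, 18.5 ± 1.499 in RANKL, 18.4 ± 0.540 in EV and 18.6 ± 0.497 in PBS cells at 72 h, and to group means of 17.6 to 19.6 RPKM at 48 h. With Ppp3cc added, a choice made after seeing the data, the sum was 25.3 ± 1.22 RPKM in EV+RANKL, 25.7 ± 0.509 in RANKL, 26.9 ± 1.60 in EV and 29.4 ± 0.384 in PBS cells at 72 h, where the PBS libraries lay above all others, and had group means of 27.3 to 28.3 RPKM at 48 h.

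Ppp3r1, the regulatory chain, ran from 17.2 to 29.0 RPKM. It had 21.0 and 22.8 RPKM in EV+RANKL, 20.7 and 23.8 in RANKL, 17.2 and 19.5 in EV, and 20.6 and 23.1 in PBS cells at 72 h. At 48 h it had 25.1 and 25.9 RPKM in EV+RANKL, 24.3 and 29.0 in RANKL, 22.1 and 21.4 in EV, and 21.7 and 22.6 in PBS cells. The lowest group was EV at 72 h (log2 change against PBS -0.24, interval -0.48 to -0.01, limma adjusted p = 0.12) and the highest was RANKL at 48 h (0.25, interval 0.02 to 0.48, adjusted p = 0.14), which passed when 48 h libraries alone were fitted (adjusted p = 0.0488). In the annotation 14.3% of the exonic bases of Ppp3r1 are shared with Wdr92, a gene at up to 12.7 RPKM here, and with the counting by strand unknown, small differences of Ppp3r1 are uncertain.

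Rcan1 rose in all 3 treatments, with vesicles alone too. It had 50.2 and 50.2 RPKM in EV+RANKL, 28.2 and 40.9 in RANKL, 16.6 and 19.9 in EV, and 8.26 and 10.2 in PBS cells at 72 h. At 48 h it had 48.2 and 58.0 RPKM in EV+RANKL, 35.9 and 45.2 in RANKL, 31.7 and 37.5 in EV, and 10.4 and 11.3 in PBS cells. At 72 h the treatments did not overlap, while at 48 h the EV and RANKL libraries did. EV+RANKL raised Rcan1 5.43-fold at 72 h (log2 change 2.33 ± 0.18, limma adjusted p = 2.2e-06) and 4.89-fold at 48 h (2.18 ± 0.18, adjusted p = 5.5e-06; 2.05 without EV+RANKL_48h replicate 2). RANKL alone raised it 3.74-fold at 72 h (1.78 ± 0.18, adjusted p = 6.2e-05), or by 1.52 on the log2 scale without RANKL_72h replicate 2, and 3.73-fold at 48 h (1.80 ± 0.18, adjusted p = 4.5e-05). Vesicles alone raised it 1.97-fold at 72 h (0.91 ± 0.18, adjusted p = 0.0113) and 3.19-fold at 48 h (1.58 ± 0.18, adjusted p = 6.4e-04). The 72 h call for vesicles was lost without EV_72h replicate 1 (1.03, adjusted p = 0.0546), without PBS_72h replicate 2 (1.05, adjusted p = 0.0691) and when 72 h libraries alone were fitted (adjusted p = 0.0762).

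Rcan1 was above the sum of Ppp3ca and Ppp3cb in all groups with RANKL and in EV at 48 h, and below it in PBS. Its RPKM was 2.71 ± 0.159 times the sum of Ppp3ca and Ppp3cb in EV+RANKL, 1.86 ± 0.336 in RANKL, 0.987 ± 0.0992 in EV and 0.497 ± 0.0618 in PBS cells at 72 h (SD, n = 2 per group). At 48 h the ratio was 2.70 ± 0.354 in EV+RANKL, 2.12 ± 0.307 in RANKL, 1.96 ± 0.235 in EV and 0.606 ± 0.00660 in PBS cells. Over the sum that includes Ppp3cc, the ratio was 1.98 ± 0.0953 in EV+RANKL, 1.34 ± 0.324 in RANKL, 0.677 ± 0.0474 in EV and 0.315 ± 0.0516 in PBS cells at 72 h, and 1.90 ± 0.333, 1.45 ± 0.175, 1.27 ± 0.165 and 0.384 ± 0.00352 in these treatments at 48 h. With either sum, all libraries with RANKL and both EV libraries of 48 h were above 1, and all PBS libraries were below 1. Nfatc1 was 2.43 to 2.96 times Rcan1 in the means of the 4 groups with RANKL, 1.38 and 1.40 times in EV at 72 h and 48 h, and 1.23 and 1.101 times in PBS at 72 h and 48 h. These ratios are of transcripts, and protein was not measured.

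**Figure D3:**
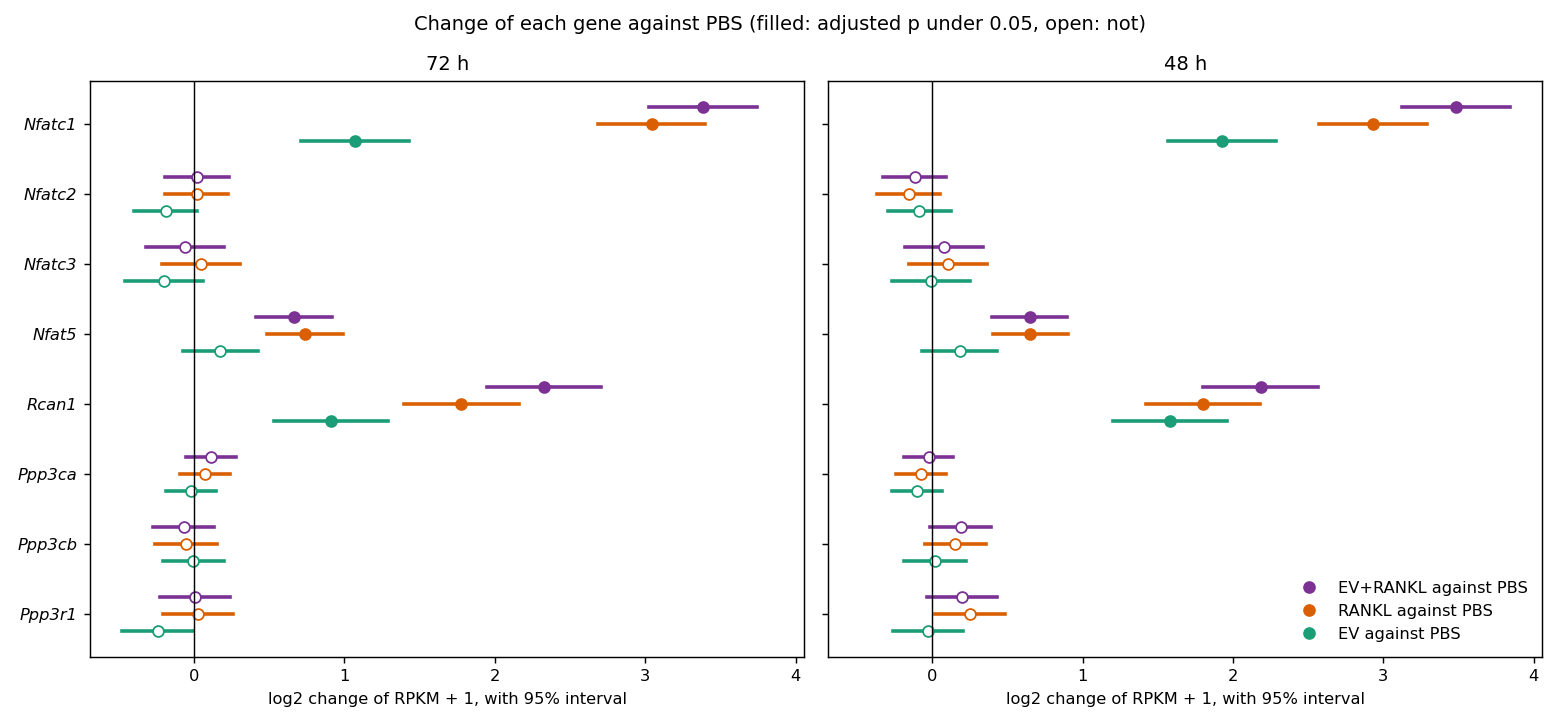
Log2 change of RPKM + 1 against PBS for each gene at 72 h (left) and 48 h (right), from EV+RANKL, RANKL and EV (top to bottom within a gene), with 95% intervals from limma; filled points passed an adjusted p of 0.05 and open points did not. Nfatc1, Nfat5 and Rcan1 carry all filled points, and the intervals of the other 5 genes stay within -0.48 and 0.48.

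Vesicles added to RANKL gave higher means of Nfatc1 and Rcan1 than RANKL alone, and 0 of the 8 genes passed at 72 h or 48 h, where 1.83% and 0.434% of all tested genes did (2185 and 834 genes had an unadjusted p under 0.05). Nfatc1 was 127 ± 3.26 RPKM in EV+RANKL against 101 ± 13.9 in RANKL at 72 h (SD, n = 2 each; log2 change 0.34, interval -0.02 to 0.70, limma adjusted p = 0.257). At 48 h it was 144 ± 4.76 RPKM in EV+RANKL against 97.6 ± 5.35 in RANKL (0.56, interval 0.20 to 0.91, adjusted p = 0.202), which passed when 48 h libraries alone were fitted (adjusted p = 0.0181). Without EV+RANKL_48h replicate 2 the 48 h difference of Nfatc1 was 0.59 (adjusted p = 0.524). At 72 h it was 0.20 without RANKL_72h replicate 1 and 0.48 without RANKL_72h replicate 2, neither of which passed. Rcan1 differed by 0.55 at 72 h (interval 0.17 to 0.93, adjusted p = 0.114) and by 0.38 at 48 h (interval 0.00 to 0.76, adjusted p = 0.614). The 72 h difference of Rcan1 was 0.81 without RANKL_72h replicate 2, the RANKL library that stood apart, and 0.29 without RANKL_72h replicate 1. Ribosomal protein genes made up 10.8% to 11.0% of summed RPKM in both EV+RANKL libraries of 72 h and in RANKL_72h replicate 2. They made up 9.17% in RANKL_72h replicate 1. Without RANKL_72h replicate 2, added vesicles therefore cannot be told apart from that division of the libraries. The 48 h difference of Rcan1 was 0.25 without EV+RANKL_48h replicate 2, 0.22 without RANKL_48h replicate 1, 0.52 without EV+RANKL_48h replicate 1 and 0.55 without RANKL_48h replicate 2, and passed in none of these. Neither gene overlapped between EV+RANKL and RANKL libraries at either time. At 72 h 3 of the 8 genes did not overlap, Ppp3ca with a difference of 0.04 among them, and at 48 h 2 did not. The share of all tested genes without overlap was not counted, so the separation is a description. Nfat5 overlapped at both times, with differences of -0.07 at 72 h (interval -0.32 to 0.18) and -0.01 at 48 h (interval -0.25 to 0.24; 0.13 without EV+RANKL_48h replicate 2).

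Adding RANKL to vesicles raised Nfatc1, Rcan1 and Nfat5. In EV+RANKL against EV, 3 of 8 genes passed at 72 h and 3 at 48 h, beside 22.0% and 9.53% of all tested genes. Nfatc1 was higher by 2.31 ± 0.17 on the log2 scale at 72 h (limma adjusted p = 5.4e-06) and by 1.56 ± 0.17 at 48 h (adjusted p = 1.8e-04; 1.59 without EV+RANKL_48h replicate 2). Rcan1 was higher by 1.42 ± 0.18 at 72 h (adjusted p = 1.5e-04) and by 0.60 ± 0.18 at 48 h (adjusted p = 0.0496). The 48 h difference of Rcan1 no longer passed when any 1 of its 4 libraries was left out (0.47 to 0.73). Nfat5 was higher by 0.49 ± 0.12 at 72 h (adjusted p = 0.00864) and by 0.47 ± 0.12 at 48 h (adjusted p = 0.0219). Its 72 h call was lost without EV+RANKL_72h replicate 2 (0.43) or EV_72h replicate 2 (0.40), and its 48 h call without EV+RANKL_48h replicate 1 (0.34) or either EV_48h library (0.54 without replicate 1 and 0.39 without replicate 2).

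Nfatc1 and Nfat5 were lower with vesicles alone than with RANKL alone at both times. In EV against RANKL, 3 genes passed at 72 h and 2 at 48 h, all lower in EV, beside 18.6% and 6.95% of all tested genes (7.29% and 2.51% were lower). Nfatc1 was lower in EV by 1.97 ± 0.17 at 72 h (log2 change -1.97, limma adjusted p = 8.0e-05) and by 1.003 ± 0.17 at 48 h (-1.003, adjusted p = 0.00325). Rcan1 was lower at 72 h (-0.87 ± 0.18, adjusted p = 0.00558; -0.74 and adjusted p = 0.0518 without EV_72h replicate 1), and at 48 h its difference did not pass (-0.22, interval -0.60 to 0.16). Nfat5 was lower at 72 h (-0.56 ± 0.12, adjusted p = 0.00598) and at 48 h (-0.47 ± 0.12, adjusted p = 0.0280), the 48 h call being lost without any 1 of the 4 libraries (-0.58 to -0.36). The EV, RANKL and EV+RANKL comparisons against PBS share their PBS libraries, and their values are set side by side on that footing.

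Whether vesicles changed the response to RANKL was tested as an interaction on the log2 scale. It is the EV+RANKL against RANKL difference minus the EV against PBS difference, so 0 stands for fold changes that multiply. A value below 0 is a smaller fold change from vesicles with RANKL than without it, not a lower level than with RANKL alone. Whether the RPKM of the treatments add up was not tested. Of the 8 genes 0 passed at 72 h and 0 at 48 h, where 0.00965% of all tested genes passed at each time (959 and 318 genes had an unadjusted p under 0.05). Nfatc1 had an interaction of -0.73 ± 0.23 at 72 h (limma adjusted p = 0.345) and -1.37 ± 0.23 at 48 h (adjusted p = 0.108). When 48 h libraries alone were fitted, the 48 h value of Nfatc1 passed (adjusted p = 0.00699). Rcan1 had -0.36 ± 0.25 at 72 h (adjusted p = 0.683) and -1.20 ± 0.25 at 48 h (adjusted p = 0.336). When replicate number was added to the fit, both 48 h values passed (limma adjusted p = 0.0293 for Nfatc1 and 0.0114 for Rcan1). Nothing in the labels says that a number marks a shared source. In the main fit the 95% intervals of both genes at 48 h lay below 0, from -1.88 to -0.87 for Nfatc1 and from -1.74 to -0.66 for Rcan1. With 1 library left out, the 48 h interaction stayed between -1.48 and -1.26 for Nfatc1 (-1.34 without EV+RANKL_48h replicate 2) and between -1.36 and -1.04 for Rcan1 (-1.33 without that library). At 72 h Nfatc1 had -1.04 without EV_72h replicate 1 and -0.41 without EV_72h replicate 2. Rcan1 at 72 h had -0.62 without RANKL_72h replicate 1, -0.10 without RANKL_72h replicate 2, -0.23 without EV_72h replicate 2 and -0.22 without PBS_72h replicate 1.

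Between 48 h and 72 h, Nfatc1 and Rcan1 differed in cells given vesicles alone and did not pass in the other treatments. In EV cells, 3 of 8 genes passed, all lower at 72 h than at 48 h, beside 32.3% of all tested genes (14.9% were lower). Nfatc1 was 25.4 ± 8.04 RPKM at 72 h against 48.2 ± 2.18 at 48 h (SD, n = 2 each; log2 change -0.93 ± 0.17, limma adjusted p = 0.00371; adjusted p = 0.0509 when EV libraries alone were fitted). Rcan1 was 18.2 ± 2.36 RPKM at 72 h against 34.6 ± 4.09 at 48 h (-0.89 ± 0.18, adjusted p = 0.00501), with an adjusted p of 0.0521 without EV_72h replicate 1. Nfatc2 was lower too (-0.35 ± 0.10, adjusted p = 0.0192), and its call was lost without EV_72h replicate 1 (-0.31) or EV_48h replicate 2 (-0.27). Nfatc3 passed as lower only without EV_72h replicate 2 (-0.39, adjusted p = 0.0186). Both EV libraries of 72 h are among those that stood apart, so this comparison cannot be told apart from that division.

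In the other treatments 0 of the 8 genes passed over time, against 38.9% of all tested genes in EV+RANKL, 6.03% in RANKL and 0.646% in PBS (5021, 2957 and 1169 genes had an unadjusted p under 0.05). Nfatc1 changed by -0.18 in EV+RANKL (interval -0.53 to 0.18), 0.04 in RANKL (-0.32 to 0.39) and -0.08 in PBS (-0.44 to 0.28). Rcan1 changed by -0.07 in EV+RANKL (interval -0.45 to 0.31), -0.24 in RANKL (-0.62 to 0.14) and -0.22 in PBS (-0.60 to 0.16). Without EV+RANKL_48h replicate 2, the change over time in EV+RANKL was -0.21 for Nfatc1 and 0.06 for Rcan1, which turned its sign. Ppp3ca was higher at 72 h in EV+RANKL (0.20, interval 0.03 to 0.36) and Ppp3cb lower (-0.22, interval -0.42 to -0.01), with adjusted p-values of 0.056 and 0.083. The change of the vesicle effect over time, EV against PBS at 72 h minus the same at 48 h, was -0.86 ± 0.23 for Nfatc1 (adjusted p = 0.155) and -0.67 ± 0.25 for Rcan1 (adjusted p = 0.186), and 0 of 8 genes passed beside 0.0193% of all genes (2012 had an unadjusted p under 0.05). For Nfatc1 it passed without EV_72h replicate 2 (-1.17, adjusted p = 0.00955). The RANKL effect over time passed in 0 of 8 genes beside 0.0289% of all genes (1202 had an unadjusted p under 0.05), with 0.11 ± 0.23 for Nfatc1, -0.02 ± 0.25 for Rcan1 and 0.08 ± 0.16 for Nfat5.

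Nfatc1 and Rcan1 had similar profiles over the 8 group means (Pearson r = 0.978), as a description over groups that share libraries and controls. Among 1105 genes that spanned at least 1 on the log2 scale and reached 5 RPKM, those most like Nfatc1 included Chpf (0.984), a chondroitin polymerising factor, Ehd2 (0.983), a membrane-shaping ATPase, Jdp2 (0.982), an AP-1 family factor, and Rcan1 itself. The most like Rcan1 were Rai14 (0.988), an actin-associated protein, Vegfc (0.981), a lymphatic growth factor, Nfatc1, Ank (0.972), a pyrophosphate transporter, and Rgs16 (0.970), a regulator of G protein signalling. Jdp2 ran from 15.2 to 177 RPKM and Rai14 from 5.56 to 39.5 RPKM in group means. The profile of Nfat5 had r = 0.931 with Nfatc1 and 0.840 with Rcan1, and those of Nfatc2, Nfatc3, Ppp3ca, Ppp3cb and Ppp3r1 had r of 0.02 to 0.52 with Nfatc1.

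Of the paralogs, Rcan3 and Ppp3cc were tested. Rcan3, another calcipressin, rose with EV+RANKL at 72 h (10.2 ± 0.0856 RPKM, against 5.68 ± 0.150 RPKM with PBS, SD, n = 2 each; log2 change 0.75 ± 0.12, limma adjusted p = 3.8e-04). Ppp3cc, the third catalytic chain, fell in the same comparison (6.81 ± 0.133 RPKM against 10.8 ± 0.881 in PBS; -0.59 ± 0.13, adjusted p = 0.00248). With RANKL alone at 72 h Rcan3 was higher by 0.51 and Ppp3cc lower (-0.53), and both calls were lost without RANKL_72h replicate 2 (0.37 and -0.41) or PBS_72h replicate 1 (0.49 and -0.45). Neither passed at 48 h. Nfatc4 and Rcan2 stayed at or below 0.272 and 0.190 RPKM in all libraries.

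The counts of the pathway lists are to be read against the shares of all tested genes that passed against PBS, namely 41.9% with EV+RANKL, 18.9% with RANKL and 18.3% with EV at 72 h, and 22.1%, 14.8% and 1.29% with these treatments at 48 h. Of 16 tested genes reported as NFATc1 targets in osteoclasts, 14 rose with EV+RANKL, 13 with RANKL and 4 with EV against PBS at 72 h, and 0 fell. At 48 h 11 rose and 1 fell with EV+RANKL, 7 rose and 1 fell with RANKL, and 2 rose with EV. The 48 h calls with EV+RANKL were fewer without EV+RANKL_48h replicate 1, and those with RANKL were fewer without PBS_48h replicate 2. The median log2 changes of the list were 2.84, 1.72 and 0.34 at 72 h and 1.45, 0.98 and 0.13 at 48 h for EV+RANKL, RANKL and EV. Acp5, the acid phosphatase of osteoclasts, was at 549 ± 161 RPKM in EV+RANKL, 238 ± 101 in RANKL, 37.7 ± 5.31 in EV and 0.540 ± 0.145 in PBS cells at 72 h (log2 changes against PBS 8.45, 7.21 and 4.65). Atp6v0d2, a proton pump subunit of resorbing cells, was at 270 ± 61.7 RPKM in EV+RANKL, 134 ± 39.1 in RANKL, 28.8 ± 13.2 in EV and 1.16 ± 0.541 in PBS cells at 72 h. Both passed with EV at 48 h, with log2 changes of 3.49 and 3.31. Cst3, a cysteine protease inhibitor, was the gene that fell at 48 h (-0.73 with EV+RANKL and -0.63 with RANKL). Leaving out EV_72h replicate 1 or PBS_72h replicate 2 reduced the EV count at 72 h to 2.

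Of 9 tested genes of the osmotic response that NFAT5 drives, 6 rose with EV+RANKL, 5 with RANKL and 4 with EV against PBS at 72 h, and 5, 3 and 0 rose at 48 h, when 1 fell with EV+RANKL and 1 with RANKL. Slc5a3, a transporter of myo-inositol, was at 27.6 ± 5.32 RPKM in EV+RANKL and 23.2 ± 6.46 in RANKL, against 6.25 ± 0.216 in PBS cells at 72 h (log2 changes 1.97 and 1.71), and rose by 1.59 and 1.37 on the log2 scale at 48 h. Ccl2, a chemokine that NFAT5 is also reported to drive, was the gene that fell at 48 h (-1.75 with EV+RANKL and -1.48 with RANKL), with calls lost without PBS_48h replicate 1 (-1.20 and -0.93), EV+RANKL_48h replicate 2 (-1.66) or RANKL_48h replicate 2 (-1.01). The EV count of 4 at 72 h was 0 without EV_72h replicate 1 or PBS_72h replicate 2, and the RANKL count of 5 was 2 without RANKL_72h replicate 2 and 3 without either PBS_72h library. At 48 h the genes called with EV+RANKL numbered 2 without EV+RANKL_48h replicate 2 or PBS_48h replicate 1, and those called with RANKL 2 without RANKL_48h replicate 2 or PBS_48h replicate 1.

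Among 16 tested partners and inducers of Nfatc1, 8 rose and 4 fell with EV+RANKL, 6 rose and 2 fell with RANKL, and 3 rose and 3 fell with EV at 72 h. At 48 h 8 rose and 3 fell with EV+RANKL, 8 rose and 2 fell with RANKL, and 3 rose with EV. Fosl2, an AP-1 subunit, was at 80.8 ± 1.99 RPKM in EV+RANKL, 47.4 ± 15.8 in RANKL and 16.8 ± 0.606 in EV, against 4.63 ± 0.661 in PBS cells at 72 h. Jdp2 passed against RANKL alone when vesicles were added at 48 h (177 ± 4.21 RPKM in EV+RANKL against 89.2 ± 3.27 in RANKL; log2 change 0.98 ± 0.14, limma adjusted p = 0.00782), and did not pass with any 1 of the 4 libraries left out (0.95 to 1.02, adjusted p = 0.0760 to 0.0951). At 48 h the genes called with EV+RANKL numbered 7 without EV+RANKL_48h replicate 2 or PBS_48h replicate 2. Those called with RANKL numbered 6 without RANKL_48h replicate 1 or PBS_48h replicate 1, 5 without PBS_48h replicate 2 and 3 without RANKL_48h replicate 2. The EV calls at 72 h numbered 2 without EV_72h replicate 1 and 1 without PBS_72h replicate 2.

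Of 13 tested repressors of Nfatc1, 4 rose and 6 fell with EV+RANKL, 2 rose and 2 fell with RANKL and 1 fell with EV at 72 h, and at 48 h 1 rose and 7 fell with EV+RANKL, 1 rose and 4 fell with RANKL, and 0 changed with EV. Irf8, a macrophage transcription factor that holds Nfatc1 down, fell with RANKL at 48 h to 0.884 ± 0.108 RPKM, against 6.42 ± 0.0207 RPKM in PBS. Of these calls, EV+RANKL had 6 at 72 h without PBS_72h replicate 2 and 5 at 48 h without PBS_48h replicate 2. RANKL had 2 at 72 h without RANKL_72h replicate 2 and 3 at 48 h without RANKL_48h replicate 1 or PBS_48h replicate 2, and the EV call at 72 h was lost without EV_72h replicate 1 or PBS_72h replicate 2.

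Of 23 tested genes of calcium entry, release and removal, 11 rose and 6 fell with EV+RANKL, 4 rose and 1 fell with RANKL, and 5 rose and 2 fell with EV at 72 h, while at 48 h 3 rose and 1 fell with EV+RANKL, 3 rose with RANKL and 1 rose with EV. These counts were 73.9% of the list with EV+RANKL, beside 41.9% of all tested genes, 21.7% with RANKL, beside 18.9%, and 30.4% with EV, beside 18.3%, at 72 h. At 48 h they were 17.4% with EV+RANKL, beside 22.1%, 13.04% with RANKL, beside 14.8%, and 4.35% with EV, beside 1.29%. Atp2a3, a calcium pump of the endoplasmic reticulum, rose in all 6 comparisons, to 25.8 ± 0.520 RPKM in EV+RANKL, 20.4 ± 3.95 in RANKL and 12.2 ± 0.364 in EV, against 3.30 ± 0.000148 in PBS cells at 72 h. At 72 h the calcium genes called numbered 11 with EV+RANKL without its replicate 1, 1 with RANKL without RANKL_72h replicate 2, and 2 without PBS_72h replicate 2. With EV 1 was called without EV_72h replicate 1 or PBS_72h replicate 2.

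Of 13 tested genes of ITAM signalling, which costimulates the calcium response, 6 rose and 1 fell with EV+RANKL, 3 rose and 2 fell with RANKL and 5 rose with EV at 72 h, while at 48 h 1 rose and 5 fell with EV+RANKL, 4 fell with RANKL and 0 passed with EV (limma). These counts were 53.8% of the list with EV+RANKL, beside 41.9% of all tested genes, and 38.5% with RANKL and with EV, beside 18.9% and 18.3%, at 72 h, and at 48 h 46.2% with EV+RANKL, beside 22.1%, and 30.8% with RANKL, beside 14.8%. The list also holds Pirb, a receptor that inhibits this signalling, which is among the 5 called higher with EV at 72 h. Trem2, a receptor that signals through the adaptor Tyrobp, fell with RANKL at 48 h (18.0 ± 0.330 RPKM, against 36.9 ± 2.60 RPKM with PBS; log2 change -0.997 ± 0.13, limma adjusted p = 3.0e-04). At 72 h the ITAM calls numbered 4 with EV+RANKL without its replicate 1, 2 with RANKL without its replicate 2 and 3 without either PBS library, and 0 with EV without EV_72h replicate 1 or PBS_72h replicate 2. At 48 h they numbered 3 with EV+RANKL without its replicate 1 or either PBS library, and 2 with RANKL without its replicate 2 or either PBS library.

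Of 10 tested calcineurin inhibitors, anchors and immunophilins, 3 rose and 3 fell with EV+RANKL, 2 rose and 1 fell with RANKL, and 1 rose and 3 fell with EV at 72 h, while at 48 h 4 rose with EV+RANKL and 1 with RANKL. Chp1, a calcineurin-like calcium sensor, rose with RANKL at 72 h and 48 h (0.82 and 0.68 on the log2 scale) and with EV+RANKL (1.19 and 0.77). The other calls of this list were fewer without RANKL_72h replicate 2 (1 with RANKL at 72 h), without EV_72h replicate 1 or PBS_72h replicate 2 (0 with EV), without PBS_72h replicate 1 (2 with EV), without EV+RANKL_48h replicate 1 or PBS_48h replicate 2 (1 with EV+RANKL at 48 h), and without EV+RANKL_48h replicate 2 (2).

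Of 12 tested calcineurin substrates other than NFAT, 1 rose and 2 fell with EV+RANKL, 1 fell with RANKL and 1 fell with EV at 72 h, while at 48 h 4 fell with EV+RANKL, 3 with RANKL and 0 with EV. The share called with EV+RANKL was 25.0% of the list at 72 h, beside 41.9% of all tested genes, and 33.3% at 48 h, beside 22.1%. Mef2c, a transcription factor of the MADS family, fell with EV+RANKL (-1.33 at 72 h and -1.15 at 48 h) and with RANKL (-1.01 and -1.13). At 48 h Mef2a, of the same family, and Tfe3, a factor of lysosomal genes, fell with EV+RANKL (-0.53 and -0.52) and with RANKL (-0.50 and -0.50). The EV+RANKL call of Mef2a was lost without EV+RANKL_48h replicate 2 (-0.41) or PBS_48h replicate 2 (-0.335). Its RANKL call was lost without either RANKL_48h library (-0.616 and -0.385) or PBS_48h replicate 2 (-0.307). Both calls of Mef2a were lost with no filter. The RANKL call of Tfe3 was lost without RANKL_48h replicate 2 (-0.449), which left Mef2c. At 72 h the calls with EV+RANKL numbered 1 without EV+RANKL_72h replicate 1 or PBS_72h replicate 2, and the EV call was lost without either EV_72h library or PBS_72h replicate 2.

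Of 12 tested kinases and partners that keep NFAT out of the nucleus, 2 rose and 3 fell with EV+RANKL, 0 passed with RANKL (limma) and 2 fell with EV at 72 h, while at 48 h 2 rose and 1 fell with EV+RANKL, 1 rose and 1 fell with RANKL, and 0 passed with EV. The share called with EV+RANKL was 41.7% of the list at 72 h, beside 41.9% of all tested genes, and 25.0% at 48 h, beside 22.1%. Dyrk2, a kinase that phosphorylates NFAT, rose with EV+RANKL by 0.71 at 72 h and 0.47 at 48 h on the log2 scale. The 48 h call of Dyrk2 was lost with no filter on low values. It was also lost without any 1 of its 4 libraries (0.39 to 0.56, the latter without EV+RANKL_48h replicate 2). Gsk3a, a kinase of the GSK3 family, fell at 72 h with EV+RANKL (-0.41) and EV (-0.48). The EV+RANKL calls at 72 h numbered 1 without EV+RANKL_72h replicate 1 or PBS_72h replicate 2 and 3 without EV+RANKL_72h replicate 2. The EV calls at 72 h numbered 0 without EV_72h replicate 1 or PBS_72h replicate 2 and 1 without PBS_72h replicate 1. At 48 h the EV+RANKL calls numbered 1 without either EV+RANKL_48h library or PBS_48h replicate 1, and the RANKL calls 0 without RANKL_48h replicate 2 and 1 without any other of the 4 libraries.

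**Figure D4:**
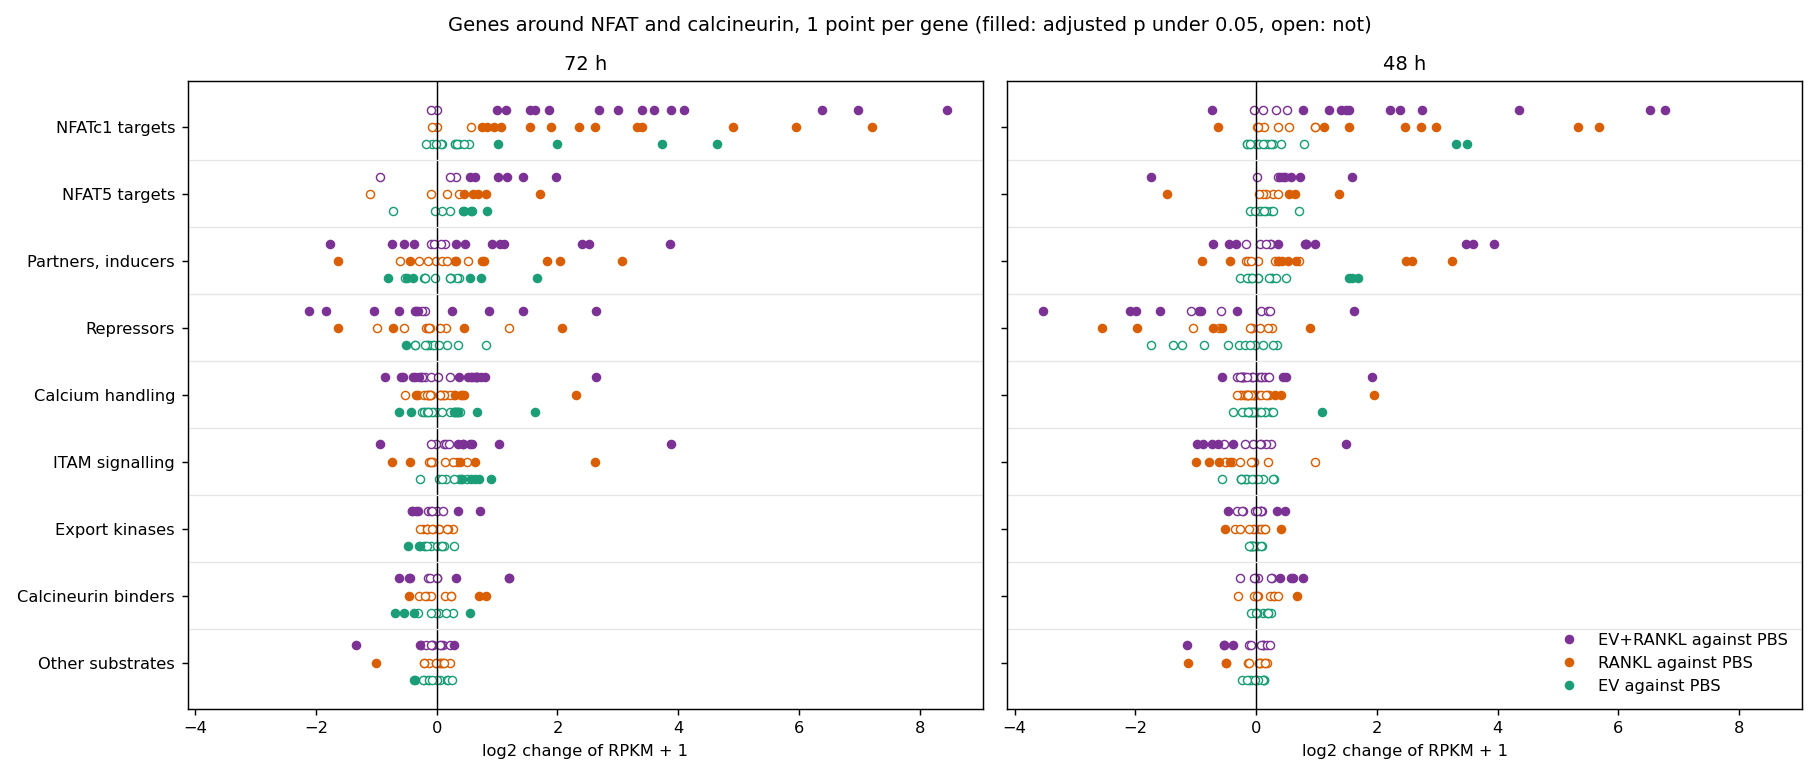
Log2 change of RPKM + 1 against PBS at 72 h (left) and 48 h (right) for the tested genes of 9 lists around NFAT and calcineurin, with 1 point per gene and the rows EV+RANKL, RANKL and EV from top to bottom in each list; filled points passed an adjusted p of 0.05. The NFATc1 targets reach 8.45 with EV+RANKL at 72 h, while the calcineurin-binding genes stay between -0.70 and 1.20.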

How the data were processed

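Total RNA of RAW264.7 cells was sequenced after TruSeq mRNA library preparation, per the labels' protocols. FastQC, HISAT2 and Partek were used, per the submitters' processing notes, which name the human builds GRCh38 and hg38; the sources used here do not give the mouse build, annotation or counting method. The authors deposited 1 table of log2 values, whose base and added 1 were found from the values: read as log2(RPKM + 1), 82.5% to 86.7% of low values of single-exon genes were within 0.05 of whole reads, against 63.0% to 69.3% with base e and 26.9% to 37.5% with base 10. The column of 1 EV+RANKL library at 48 h lacked the letter for RANKL; its group was inferred from its plus sign and time, and it is called replicate 2 because the other column of the group is replicate 1.

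Limma 3.58.1 in R 4.3.3 fitted 8 group means to 16 libraries with a variance trend, for the 10365 genes with a minimum of 1 RPKM in 2 libraries (8 residual degrees of freedom). Errors are standard errors of log2 changes and standard deviations of RPKM; changes of genes near 1 RPKM are understated. The fit was tested on simulated data with known changes. Alternatives were quantile normalization, no filter, a pseudocount of 0.1, fits of the comparison's own libraries, a replicate block and leaving out each library.

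The 8 genes and the gene lists were chosen with earlier results of these data known. All 8 are reported everywhere; from each other list, examples are taken from the at most 3 genes past the threshold with the largest change and at least 5 RPKM, and genes that make up a count of 5 or fewer outside this rule were chosen after their values were seen. Likeness was ranked for genes spanning at least 1 on the log2 scale, with 5 genes per member. Promoter motifs were counted in RefSeq windows, with those of 1 chromosome left out. Values of a few single genes outside the 8 are not reported here.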

Additional observations from a re-analysis of the deposited data

How the results depend on the processing

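Of 30 results in which 1 of the 8 genes passed, 141 of 150 values under quantile normalization, no filter, a pseudocount of 0.1, fits of the comparison's own libraries or a replicate block kept the call, as did 100 of 120 values with 1 library left out, and 0 were reversed. Nfatc1 kept 96 of 99, Rcan1 79 of 90, Nfat5 60 of 72 and Nfatc2 6 of 9. The number of the 8 genes that passed moved by over 1.5 times as follows. Fits of the comparison's own libraries gave 1 for EV+RANKL against RANKL at 48 h, 0 for EV against PBS at 72 h, 1 for EV at 72 h against 48 h and 1 for the interaction at 48 h. Quantile normalization and no filter each gave 1 for EV against RANKL at 48 h, and no filter gave 1 for EV+RANKL at 72 h against 48 h. Leaving out 1 library gave 1 to 2 for EV+RANKL against EV at 48 h, 1 to 1 for EV against RANKL at 48 h, 0 to 3 for EV against PBS at 72 h, 0 to 1 for EV+RANKL against RANKL at 72 h, 1 to 4 for EV at 72 h against 48 h and 0 to 1 for the vesicle effect over time. The cause was not tested; fits of fewer libraries have less residual freedom.

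The replicate numbers did not meet the rule for pairing, a correlation over 0.1 in all pairs of groups: deviations of same-numbered libraries correlated at -0.115 to 0.529 (median 0.151) over 28 pairs, with 17 over 0.1, and among 48 h groups all 6 pairs were over it (0.14 to 0.476). All 8 groups deviated on average with their own number, a hint from the data and not the design. The library with the incomplete column name carries its number by elimination. With the replicate block the genes that passed numbered 1 (Rcan1, 0.55, limma adjusted p = 0.0228) for EV+RANKL against RANKL at 72 h, 2 (Ppp3ca and Ppp3cb) for EV+RANKL at 72 h against 48 h, and 2 for the interaction at 48 h (Nfatc1, adjusted p = 0.0293, and Rcan1, adjusted p = 0.0114). It also called Ppp3r1 at 72 h in EV+RANKL against EV, in EV against RANKL and in EV against 48 h (0.25, -0.27 and -0.23).

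Of 148 named results of the other lists, 660 of 740 values under the same alternatives and 443 of 592 with 1 library left out kept the call, and 0 were reversed. With 2 libraries a group, a p that misses the threshold does not show that levels were equal.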
